A study of Mus musculus with 36 samples.

Results

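The genes described here are 10 mouse genes of bile acid metabolism, chosen by symbol and without regard to their values. They comprise 3 cytochrome P450 enzymes that make bile acids (Cyp7a1, Cyp8b1, Cyp27a1), the transporters Slc10a1 and Abcb11, and 5 nuclear receptors (Nr1h4, Nr0b2, Nr5a2, Nr1i3, Nr1i2). Each was represented by a single probe among the 12394 genes with a named probe, and all 10 were measured in liver, 4 in kidney, 2 in heart and 1 in brain. Intensities came from 36 single-colour arrays hybridised with Cy5-labelled total RNA, 3 arrays for each of 3 treatments in liver, kidney, heart and brain. The mice were female, 6 to 8 weeks old, of strain FVB and transgenic, and their luciferase activity was imaged; the labels used here do not state which promoter drives the transgene. The first treatment, LPS + genipin, was lipopolysaccharide (LPS) at 4 mg/kg into the peritoneum followed after 10 min by genipin, a compound known from gardenia fruit. The second was LPS at the same dose without genipin, and the third, mock, was no treatment. Tissues were taken 4 h later. The study used genipin at 1, 10 or 100 mg/kg in separate groups of 5 mice, and the labels used here do not state which of these doses the arrayed mice had. They also do not state whether a group's 3 arrays are 3 mice, so the p-values cover the spread between arrays alone, which may be technical.

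Bile acids are made from cholesterol in hepatocytes. Cyp7a1 is the rate-limiting enzyme of the classic pathway, Cyp8b1 adds the 12-alpha hydroxyl group that distinguishes cholic acid, and Cyp27a1 oxidises the sterol side chain and opens the alternative pathway. The nuclear receptor FXR (Nr1h4) senses bile acids and induces SHP (Nr0b2), a receptor without a DNA-binding domain that represses transcription driven by LRH-1 (Nr5a2), while CAR (Nr1i3) and PXR (Nr1i2) sense bile acids and foreign compounds and induce the enzymes that clear them.

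Promoter windows are shown for 3 of the genes whose regulation by the other receptors is textbook knowledge. The windows are from RefSeq, build GRCm38.p6, and run 300 bases from 250 before to 50 after the annotated start, on the strand of the gene. The Nr0b2 window is chr4:133553126-133553425 (plus strand), with capitals at 2 copies of TCAAGG, the beginning of the site that LRH-1 binds, at positions -68 and -35 from the start. The Nr5a2 window is chr1:136960399-136960698 (minus strand), 1 of 2 windows listed for that gene, with capitals at AGGTCA, the core motif of many nuclear receptors, at -64. The Abcb11 window is chr2:69342567-69342866 (minus strand), with capitals at a match at -63 to an inverted repeat of the kind that FXR binds, with the arms AGGNCA and TGACCT and 1 base between them.
Nr0b2: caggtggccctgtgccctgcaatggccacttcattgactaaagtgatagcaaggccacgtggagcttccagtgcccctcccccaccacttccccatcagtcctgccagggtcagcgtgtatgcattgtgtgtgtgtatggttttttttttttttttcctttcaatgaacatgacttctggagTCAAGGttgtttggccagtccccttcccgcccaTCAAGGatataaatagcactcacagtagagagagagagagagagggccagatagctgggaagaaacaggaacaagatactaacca
Nr5a2: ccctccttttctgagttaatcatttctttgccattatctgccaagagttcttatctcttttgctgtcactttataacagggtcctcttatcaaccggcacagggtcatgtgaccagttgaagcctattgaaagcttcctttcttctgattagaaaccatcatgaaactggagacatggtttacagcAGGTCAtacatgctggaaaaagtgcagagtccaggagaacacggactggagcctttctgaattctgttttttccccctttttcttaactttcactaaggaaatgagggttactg
Abcb11: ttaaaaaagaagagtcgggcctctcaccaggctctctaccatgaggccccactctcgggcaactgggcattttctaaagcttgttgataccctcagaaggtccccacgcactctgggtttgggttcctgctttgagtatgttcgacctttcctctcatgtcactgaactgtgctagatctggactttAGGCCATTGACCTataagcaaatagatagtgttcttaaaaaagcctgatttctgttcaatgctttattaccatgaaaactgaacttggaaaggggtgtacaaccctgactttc
Searched on both strands, AGGTCA was found in 16.3% of all 32851 RefSeq windows of this length, TCAAGG in 14.4%, and the inverted repeat in 12 windows (0.0365%); the right arm of the Abcb11 repeat is also a match to AGGTCA on the opposite strand. In the Nr0b2 window a TATAAA motif, present in 13.6% of windows, lay at -28, overlapping neither copy of TCAAGG. A window was listed for 9 of the 10 genes, Cyp7a1 being the exception, and AGGTCA was found in the windows of 4 of those 9. These matches describe letters only and were not related to the intensities.

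After LPS, 9 of the 10 genes fell in liver relative to mock, led by Cyp7a1, Nr1i3, Nr0b2 and Cyp8b1, and Cyp27a1 did not pass the test. With genipin after LPS, 6 genes were higher than with LPS without genipin (Nr5a2, Cyp7a1, Nr1i2, Nr1i3, Abcb11, Nr1h4), Nr0b2 was lower still, and Cyp8b1, Slc10a1 and Cyp27a1 did not pass. Nr5a2 and Nr0b2 thus moved in opposite directions between LPS + genipin and LPS, by 1.12 and -1.11 on the log2 scale. Tests used limma on log2 intensity, with Benjamini-Hochberg adjustment over all 8641 genes measured in liver and a threshold of 0.05. Both comparisons use the same 3 LPS arrays. LPS changed much of the liver transcriptome, 66.0% of genes passing the test against mock, so the count of 9 of 10 is to be read against that share.

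The 3 enzymes behaved differently from each other. Cyp7a1 gave intensities of 1224, 1124 and 1204 in LPS + genipin livers, 505, 504 and 682 in LPS livers, and 9595, 9665 and 10379.9 in mock livers. The 3 groups did not overlap, and every LPS array lay below every LPS + genipin array. Cyp7a1 was 17.7-fold lower with LPS than with mock (log2 difference -4.14 ± 0.12 SE, adjusted p = 4.61e-08), and 1 of the 8641 genes had a lower difference in that comparison. In RNA from whole tissue, fewer cells of a type and less RNA per cell cannot be told apart. With LPS + genipin it was 2.12-fold higher than with LPS (1.08 ± 0.12, adjusted p = 1.68e-04) and 8.34-fold lower than with mock (-3.06 ± 0.12, adjusted p = 4.29e-07).

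Cyp8b1 gave 6304, 6779 and 6363 in LPS + genipin livers, 5767, 6454 and 4886 in LPS livers, and 16748, 15282 and 16897 in mock livers. Both LPS-treated groups lay below mock and overlapped each other. It fell with LPS (-1.52 ± 0.10, adjusted p = 4.71e-06) and was also lower in LPS + genipin livers than in mock (-1.33 ± 0.10, adjusted p = 1.43e-05). Between LPS + genipin and LPS the log2 difference was 0.19 ± 0.10 (adjusted p = 0.136), and without LPS replicate 2, the highest of its group, it was 0.29 ± 0.09 (adjusted p = 0.0310). Cyp27a1 gave 28039.9, 29007 and 25388 in LPS + genipin livers, 28039.9, 26866 and 28910.0 in LPS livers, and 24239, 26452 and 21348 in mock livers. The LPS arrays all lay above the mock arrays, the LPS + genipin arrays overlapped both groups, and the range of the 9 arrays was narrow beside that of the other enzymes. The log2 difference was 0.22 ± 0.09 between LPS and mock (adjusted p = 0.0512), 0.20 ± 0.09 between LPS + genipin and mock (adjusted p = 0.0824) and -0.03 ± 0.09 between LPS + genipin and LPS (adjusted p = 0.834). Without mock replicate 2, the highest of its group, Cyp27a1 passed against mock both with LPS (0.30, adjusted p = 0.0203) and with LPS + genipin (0.27, adjusted p = 0.0306).

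**Figure D1:**
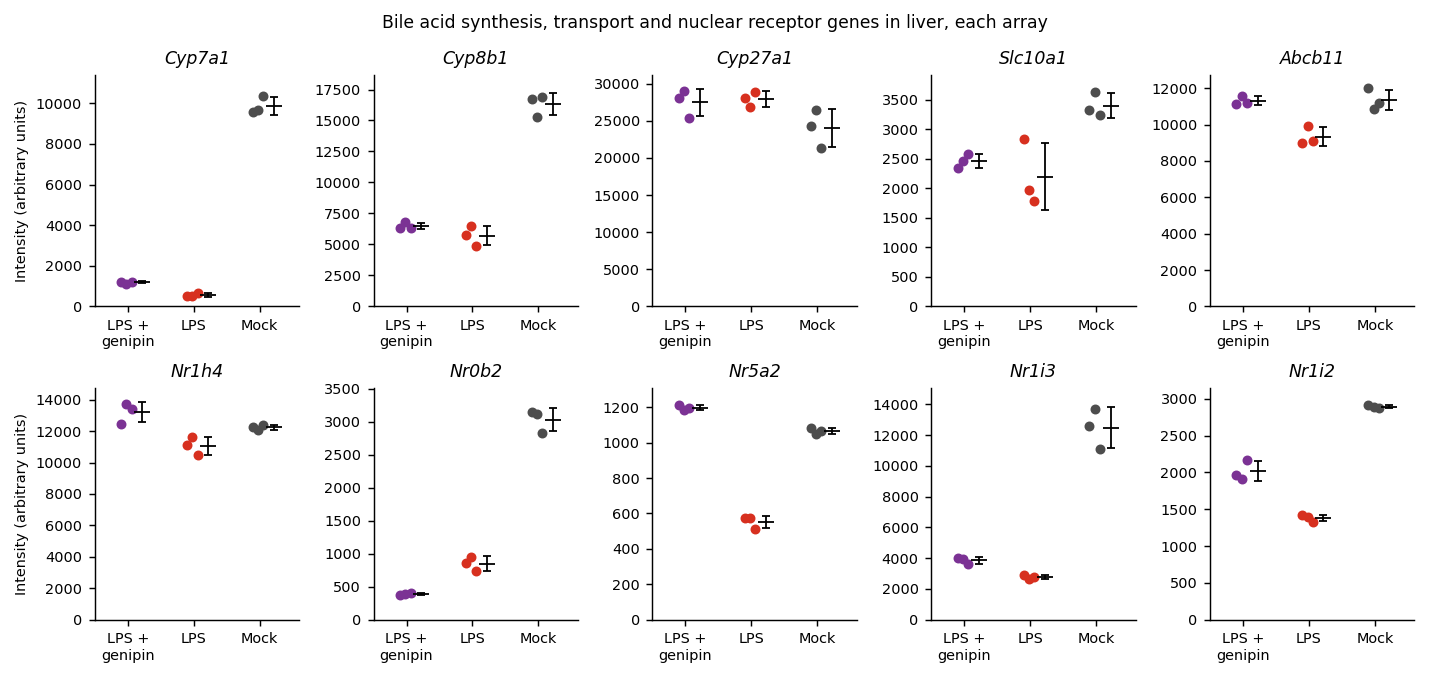
Intensity of each of the 10 genes on each liver array (points, arbitrary units on a linear axis from 0), with the mean and SD of the 3 arrays beside them, for LPS + genipin, LPS and mock. Cyp7a1 reached 9595 to 10379.9 in mock livers, against 504 to 682 in LPS livers, and Nr0b2 was lowest in LPS + genipin livers at 378 to 407.

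The transporters changed less. Slc10a1 encodes NTCP, which takes bile acids up from the blood, and gave 2349, 2469.6 and 2579 in LPS + genipin livers, 2839, 1968 and 1778 in LPS livers, and 3333, 3639.9 and 3235 in mock livers. Both LPS-treated groups lay below mock, and the LPS group had a wide range that spanned the LPS + genipin arrays because of replicate 1. Slc10a1 fell with LPS (-0.66 ± 0.16, adjusted p = 0.00680). Its log2 difference between LPS + genipin and LPS was 0.20 ± 0.16 (adjusted p = 0.325), and 0.40 ± 0.08 (adjusted p = 0.00528) without LPS replicate 1. Between LPS + genipin and mock it was -0.46 ± 0.16 (adjusted p = 0.0341). This call was lost on leaving out any 1 of the 6 LPS + genipin and mock arrays (adjusted p 0.0594 to 0.101). The LPS arrays were not left out for this comparison. Its SE pools the spread of all 3 groups, the wide LPS group included. Over all settings the adjusted p ran from 0.00160 to 0.101.

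Abcb11 encodes BSEP, the pump that exports bile salts into bile, and gave 11138, 11593 and 11177 in LPS + genipin livers, 9000.3, 9922 and 9105 in LPS livers, and 11986, 10879 and 11197 in mock livers. The LPS arrays lay below all others, and the LPS + genipin and mock arrays overlapped. Abcb11 fell with LPS (-0.28 ± 0.06, adjusted p = 0.00294) and was higher with LPS + genipin than with LPS by nearly the same amount (0.28 ± 0.06, adjusted p = 0.00465). Between LPS + genipin and mock its log2 difference was -0.01 ± 0.06 (adjusted p = 0.955).

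Among the receptors, Nr1h4 moved least. FXR transcript gave 12478, 13747 and 13429 in LPS + genipin livers, 11115, 11593 and 10483 in LPS livers, and 12268, 12043 and 12399.6 in mock livers. The 3 groups did not overlap, with LPS lowest and LPS + genipin highest. The fall with LPS was small (-0.15 ± 0.06, adjusted p = 0.0468) and was lost on leaving out LPS replicate 1 or 3 or any mock array (adjusted p 0.0768 to 0.123). The higher level with LPS + genipin than with LPS passed the test (0.26 ± 0.06, adjusted p = 0.00576), while the difference between LPS + genipin and mock was 0.11 ± 0.06 (adjusted p = 0.122).

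Nr0b2, which encodes SHP, gave 378, 392 and 407 in LPS + genipin livers, 864, 952 and 731 in LPS livers, and 3145, 3120.3 and 2829 in mock livers. The groups did not overlap, and Nr0b2 was the 1 gene of the 10 that was below mock with LPS and lower again with LPS + genipin. It fell with LPS (-1.84 ± 0.10, adjusted p = 1.36e-06) and was 2.15-fold lower with LPS + genipin than with LPS (-1.11 ± 0.10, adjusted p = 5.86e-05). Against mock it was 7.72-fold lower with LPS + genipin (-2.95 ± 0.10, adjusted p = 1.92e-07). These 3 levels all lay above the floor of 262.713 that was set for low intensities.

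Nr5a2, which encodes LRH-1, an activator of Cyp7a1 and Cyp8b1 transcription, gave 1212, 1184 and 1198 in LPS + genipin livers, 573, 572 and 513 in LPS livers, and 1084, 1051 and 1063 in mock livers. The LPS arrays stood below both other groups, and the LPS + genipin arrays stood slightly above mock. It fell with LPS (-0.95 ± 0.05, adjusted p = 1.83e-06) and was 2.17-fold higher with LPS + genipin than with LPS (1.12 ± 0.05, adjusted p = 2.52e-06). The difference between LPS + genipin and mock was 0.17 ± 0.05 (adjusted p = 0.0233), a call lost on leaving out any 1 of the 3 LPS + genipin arrays or mock replicate 2 or 3 (adjusted p 0.0502 to 0.0685). As a transcript Nr5a2 stood near its mock level in LPS + genipin livers, while Cyp7a1 and Cyp8b1 stood well below theirs. A link between these levels was not tested.

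Nr1i3 (CAR) gave 4002, 3937 and 3605 in LPS + genipin livers, 2878, 2624 and 2741 in LPS livers, and 12607, 13714 and 11076 in mock livers. The groups did not overlap, and both LPS-treated groups lay far below mock. It was 4.52-fold lower with LPS than with mock (-2.18 ± 0.08, adjusted p = 2.62e-07), higher with LPS + genipin than with LPS (0.49 ± 0.08, adjusted p = 0.00211) and 3.23-fold lower with LPS + genipin than with mock (-1.69 ± 0.08, adjusted p = 1.90e-06). Nr1i2 (PXR) gave 1964, 1917 and 2169 in LPS + genipin livers, 1419, 1397 and 1329.7 in LPS livers, and 2921, 2891 and 2875 in mock livers. These groups too did not overlap and had the same order. Nr1i2 fell with LPS (-1.07 ± 0.06, adjusted p = 1.37e-06), was higher with LPS + genipin than with LPS (0.54 ± 0.06, adjusted p = 1.37e-04) and remained below mock with LPS + genipin (-0.52 ± 0.06, adjusted p = 1.01e-04).

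**Figure D2:**
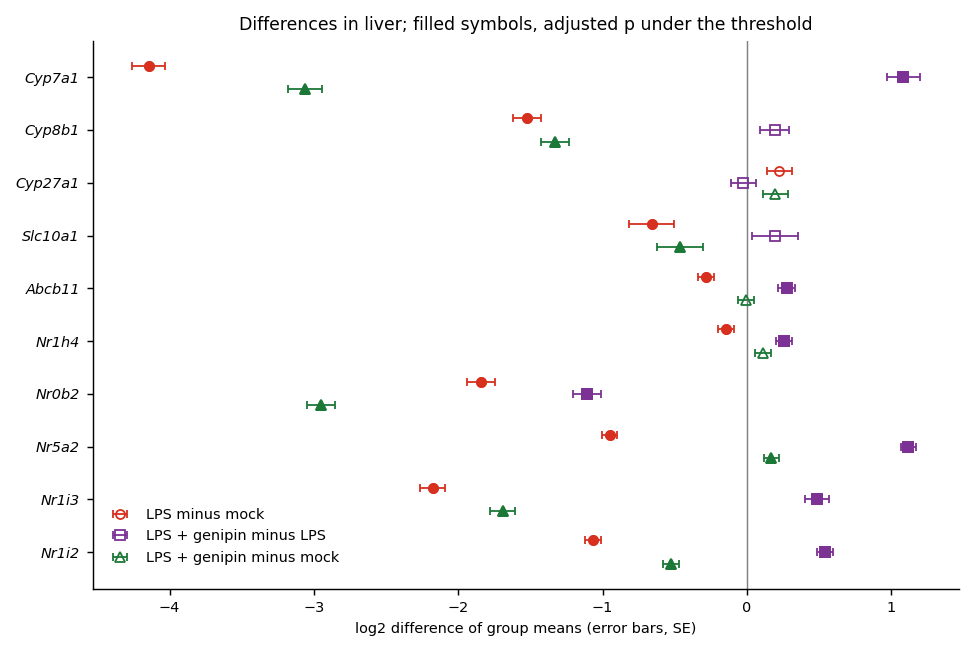
Log2 differences between group means in liver for the 10 genes, with SE bars, for LPS minus mock (circles), LPS + genipin minus LPS (squares) and LPS + genipin minus mock (triangles). Filled symbols passed an adjusted p of 0.05, and the squares lie to the right of 0 for 8 of 10 genes, Nr0b2 at -1.11 and Cyp27a1 at -0.03 being the exceptions.

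The counts over the 10 genes stand beside a liver in which most genes moved. Between LPS and mock, 0 of the 10 rose, 9 fell and 1 did not pass, with a median log2 difference of -1.01, against -0.03 over all genes, of which 29.3% rose and 36.7% fell. LPS and mock arrays were separate, with no overlap, for all 10 genes, against 70.2% of all genes. Between LPS + genipin and LPS, 6 rose, 1 fell and 3 did not pass, with a median of 0.27 against 0.03 over all genes; 54.0% of all genes passed, 29.3% higher and 24.7% lower. Here 7 of the 10 had no overlap between groups, against 60.3% of all genes. Between LPS + genipin and mock, 1 rose (Nr5a2), 6 fell and 3 did not pass, with a median of -0.49 against -0.04, and 60.4% of all genes passed, 28.2% higher and 32.2% lower; 8 of the 10 had no overlap, against 68.8% of all genes. With 1 array left out at a time, the number passing between LPS + genipin and mock was 5 or 6.

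Other genes of bile acid handling were read from lists of related genes, and the share of each list that passed is to be read against the 66.0% of all liver genes that passed for LPS against mock and the 54.0% for LPS + genipin against LPS. Of 17 measured enzymes of synthesis and conjugation outside the 10 genes, 3 rose with LPS, 9 fell and 5 did not pass (median -0.29), so that 12 of 17 passed, near the 66.0% of all genes. Akr1c14 and Akr1d1, which reduce steroid rings, fell by 2.01 ± 0.13 and 1.34 ± 0.07 on the log2 scale. Cyp7b1 and Cyp39a1, the oxysterol hydroxylases of the alternative pathways, rose by 0.68 ± 0.04 and 0.98 ± 0.24. With LPS + genipin against LPS, 4 of the 17 rose, 4 fell and 9 did not pass (median -0.04, against 54.0% of all genes passing). There the 4 named genes moved opposite to their LPS change, Akr1c14 by 1.06, Akr1d1 by 0.41, Cyp7b1 by -0.72 and Cyp39a1 by -1.47. These 4 were picked by the size of their LPS change, and both comparisons use the same LPS arrays. That choice favours opposite signs, so their number is no support for a reversal.

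Of 13 measured transporters of bile acids and bile lipids, 2 rose with LPS, 7 fell and 4 did not pass (median -0.33), so that 9 of 13 passed, near the 66.0% of all genes. Slc51b, a subunit of the basolateral exporter OST, gave 1284, 1063 and 1095 in LPS + genipin livers, 5206, 5231 and 6119 in LPS livers, and 1169, 1223 and 1186 in mock livers. Only its LPS arrays stood apart, with a rise over mock of 2.21 ± 0.09 (adjusted p = 3.37e-07) and a log2 difference of -2.27 ± 0.09 between LPS + genipin and LPS (adjusted p = 1.19e-06). Abcg8, a subunit of the canalicular sterol exporter, fell with LPS by 1.52 ± 0.09 and was higher with LPS + genipin than with LPS by 0.33 ± 0.09. The organic anion transporters Slco1a4 and Slco2b1 fell with LPS by 0.87 ± 0.19 and 0.64 ± 0.05, and their differences between LPS + genipin and LPS, 0.47 (adjusted p = 0.0706) and -0.10 (adjusted p = 0.162), did not pass. In that comparison 6 of the 13 rose, 1 fell and 6 did not pass (median 0.28), near the 54.0% of all genes that passed.

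Of 17 measured receptor partners and liver transcription factors, 1 rose with LPS, 9 fell and 7 did not pass (median -0.18), so that 10 of 17 passed, against 66.0% of all genes. Foxa1, a pioneer factor of liver enhancers, gave 1835, 1943 and 2008 in LPS + genipin livers, 452, 597 and 438 in LPS livers, and 2110.2, 1869.9 and 2159.8 in mock livers. It was lower in every LPS array than in every other array (LPS minus mock -2.06 ± 0.12, adjusted p = 2.57e-06; LPS + genipin minus LPS 1.97 ± 0.12, adjusted p = 9.98e-06). Foxa2, a related factor, had log2 differences of -1.03 ± 0.07 and 1.00 ± 0.07 in those comparisons. Onecut1, which activates hepatocyte genes, fell with LPS (-1.37 ± 0.12) and had a difference of 0.01 between LPS + genipin and LPS (adjusted p = 0.990), and Nr2f2 fell with LPS (-1.39 ± 0.24). Hnf4a, an activator of Cyp7a1 and Cyp8b1, and Rxra, the partner of FXR, CAR and PXR, did not pass with LPS (0.06, adjusted p = 0.438, and -0.18, adjusted p = 0.240) and were named here after their values were seen. In the LPS + genipin against LPS comparison, 7 of the 17 rose, 1 fell and 9 did not pass (median 0.17, against 54.0% of all genes passing).

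The enterohepatic signal through FGF15 reaches hepatocytes through Fgfr4 and its co-receptor Klb. Klb gave 1386, 1471 and 1347 in LPS + genipin livers, 397, 388 and 339.8 in LPS livers, and 1747, 1586 and 1648 in mock livers. The groups did not overlap (LPS minus mock -2.15 ± 0.07, adjusted p = 1.24e-07; LPS + genipin minus LPS 1.90 ± 0.07, adjusted p = 9.49e-07). Fgfr4 followed the same directions with smaller differences (-0.63 ± 0.05 and 0.23 ± 0.05), and the sphingosine and bile acid receptor S1pr2 the opposite ones (0.58 ± 0.11 and -0.48 ± 0.11). Of the 4 measured genes of this list, 1 rose with LPS, 2 fell and 1 did not pass, where 66.0% of all genes passed; with LPS + genipin against LPS, 2 rose, 1 fell and 1 did not pass, where 54.0% passed.

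Known targets of the receptors were read in the same way. Of 12 measured targets of CAR and PXR, 5 rose with LPS, 3 fell and 4 did not pass (median 0.03), against 66.0% of all genes passing, and 4 rose, 3 fell and 5 did not pass with LPS + genipin against LPS (median 0.03), against 54.0%. The estrogen sulfotransferase Sult1e1 rose with LPS (2.07 ± 0.08) and was higher again with LPS + genipin than with LPS (1.00 ± 0.08), whereas Cyp2b13 fell (-1.74 ± 0.06) and was higher with LPS + genipin than with LPS (0.49 ± 0.06). Cyp3a13 rose with LPS (0.93 ± 0.06) and was lower with LPS + genipin than with LPS (-0.63 ± 0.06), and Cyp2b9 fell (-0.59 ± 0.07) and was higher with LPS + genipin than with LPS (0.22 ± 0.07). Of 11 measured targets of FXR, LRH-1 and SHP, which include Nr0b2, Abcb11, Cyp8b1 and Cyp7a1 themselves, 3 rose with LPS, 6 fell and 2 did not pass (median -0.28), against 66.0% of all genes passing. With LPS + genipin against LPS, 3 rose, 2 fell and 6 did not pass (median 0.00219), against 54.0%.

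**Figure D3:**
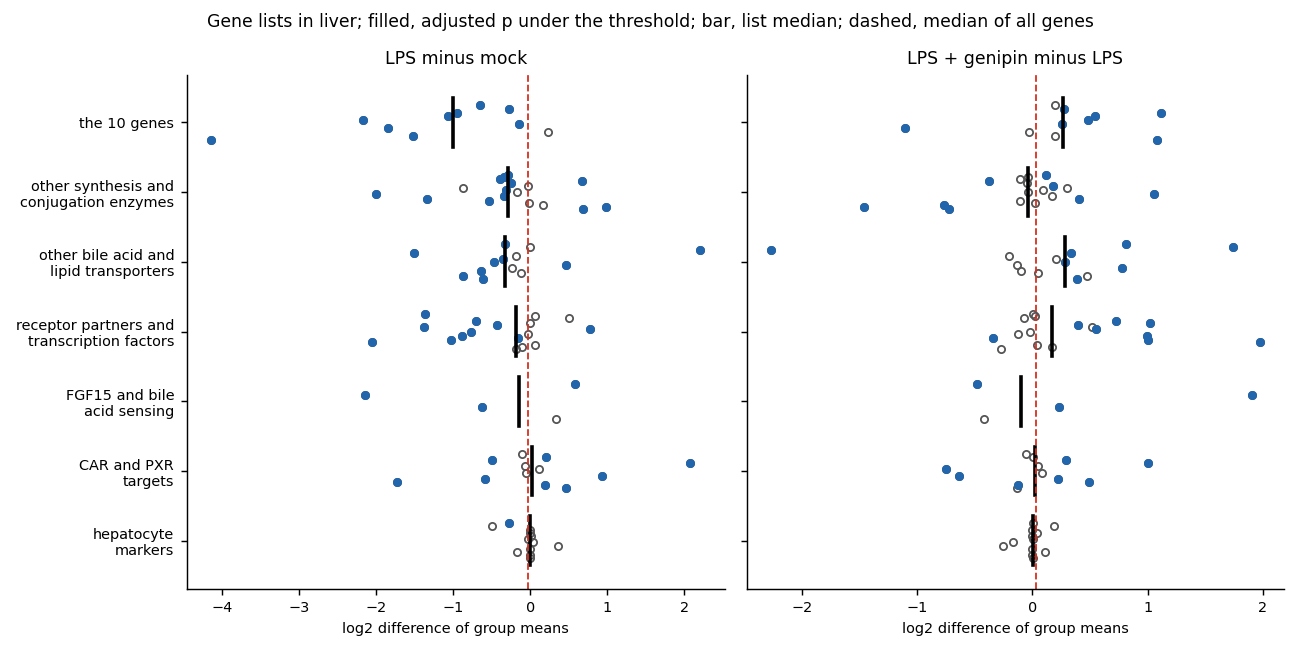
Log2 differences in liver of every measured gene of 7 lists (points; filled where the adjusted p was under 0.05), for LPS minus mock (left) and LPS + genipin minus LPS (right), with the median of each list as a bar and the median of all genes as a dashed line. The median of the 10 genes lies at -1.01 on the left and 0.27 on the right, against medians of all genes of -0.03 and 0.03.

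Markers of the cell types in liver gave the following levels beside these results. Of 12 measured hepatocyte markers, 0 rose with LPS, 1 fell (Hpd) and 11 did not pass, and all 12 did not pass with LPS + genipin against LPS, but 5 of them (Alb, Apoa1, Ttr, Cyp2e1, Ahsg) read 60000 or more on all 9 arrays, close to the highest intensity in the table, 65491.92, which limits what their test can show. Their summed intensity was 671131 to 700066 in LPS + genipin livers, 671833 to 707558 in LPS livers and 700399 to 720567 in mock livers. The summed intensity of the 2 measured neutrophil markers of 8, S100a8 and S100a9, was 57212 to 62162 in LPS + genipin livers, 80909 to 86197 in LPS livers and 3598 to 3856 in mock livers. Of 10 sinusoidal and other endothelial markers, 7 fell with LPS and 2 rose, and their sum was 29590.3 to 31651 in LPS + genipin livers, 28343 to 29525 in LPS livers and 45687 to 46299 in mock livers. For the 10 Kupffer cell and macrophage markers, of which 3 rose with LPS and 5 fell, the sums were 56843 to 59138, 61738 to 65787 and 33963 to 35604 in the same order of groups. The median log2 difference of these 10 with LPS was -0.08, so the higher sums do not stand for the list as a whole. The endothelial and macrophage counts are to be read against the 66.0% of all liver genes that passed. No measured marker of the neutrophil, endothelial and macrophage lists was at the floor in every array of a group. The part of these cells in the results for the 10 genes was not tested.

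The liver profile of Cyp7a1 was shared by many genes. Over the 9 liver arrays, 1157 of 8596 genes compared had a Pearson correlation with Cyp7a1 above 0.9, the arrays falling into 3 treatment groups that set most of it. The 5 highest were P2ry1, Sephs2, Bcl7c, Fbxo21 and Adh4, each at 0.996 after rounding, with log2 differences between LPS and mock of -2.89, -1.21, -0.74, -2.26 and -1.67, against -4.14 for Cyp7a1.

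In kidney, 4 of the genes were measured, among 9614 genes of which 64.3% passed between LPS and mock and 54.7% between LPS + genipin and LPS. The FXR gene Nr1h4 gave 28439, 29535 and 29614 in LPS + genipin kidneys, 25423, 26505 and 25479 in LPS kidneys, and 18681, 19714 and 18045 in mock kidneys. The groups did not overlap and lay in the order LPS + genipin, LPS, mock from high to low; in kidney, 69.1% of genes had no overlap between LPS and mock and 61.8% none between LPS + genipin and LPS. Nr1h4 rose with LPS (0.46 ± 0.04, adjusted p = 4.29e-05) and was higher with LPS + genipin than with LPS (0.18 ± 0.04, adjusted p = 0.00853). Its LPS response differed between the tissues, the liver difference minus the kidney difference being -0.60 ± 0.08 (adjusted p = 8.38e-06, 51.0% of 7825 genes passing this test), while for LPS + genipin against LPS it was 0.08 ± 0.08 (adjusted p = 0.452, 38.4% of genes passing).

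Cyp27a1 gave 4779.7, 5114 and 5296 in LPS + genipin kidneys, 4205, 4037 and 4236 in LPS kidneys, and 3192, 3507 and 3774 in mock kidneys. The groups again did not overlap. It rose with LPS (0.26 ± 0.07, adjusted p = 0.0105) and was higher with LPS + genipin than with LPS (0.28 ± 0.07, adjusted p = 0.00812). Against mock, LPS + genipin kidneys were higher in both Cyp27a1 (0.54 ± 0.07, adjusted p = 4.34e-04) and Nr1h4 (0.63 ± 0.04, adjusted p = 1.48e-05), a comparison in which 44.2% of genes passed and 53.8% had no overlap. The liver and kidney differences between LPS and mock were 0.22 and 0.26, and the difference of the differences was -0.03 ± 0.11 (adjusted p = 0.840). Cyp7a1, near the lower end of the scale in kidney, gave 258, 163 and 189 in LPS + genipin kidneys, 453, 457 and 539 in LPS kidneys, and 229, 299.9 and 245 in mock kidneys. Only the LPS arrays all lay above the floor of 262.713, as did 1 of 3 mock arrays and no LPS + genipin array. Cyp7a1 was higher with LPS than with mock by a log2 difference that moved with the floor, being 0.81 ± 0.08 as reported (adjusted p = 5.53e-05), 0.51 with a floor at the 10th percentile (adjusted p = 3.70e-04) and 0.91 with no floor (adjusted p = 0.00128). With LPS + genipin, at the floor on all 3 arrays, it was at least 1.83-fold lower than with LPS (adjusted p = 6.61e-05), and this difference was not set against that of liver. For LPS against mock, the liver minus kidney difference was -4.96 ± 0.14 (adjusted p = 3.24e-13), a value that also depends on the floored mock arrays.

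Nr1i2 stayed at or near the floor in kidney, with 199, 243 and 259 in LPS + genipin kidneys, 241, 222 and 182 in LPS kidneys, and 289.6, 288 and 258 in mock kidneys, so that its log2 differences are limited by the floor. Its difference between LPS and mock did not pass (-0.09, adjusted p = 0.0936), though it did without mock replicate 3 (-0.14, adjusted p = 0.00989), as did that between LPS + genipin and mock (-0.14, adjusted p = 0.0164). Every LPS and LPS + genipin array was set to the floor, so only the remaining mock arrays varied in those fits. These 2 calls therefore say little. Of 6 proximal tubule markers, all 6 measured, 1 fell with LPS and 5 did not pass, with sums of 281486 to 284544 in LPS + genipin kidneys, 286175 to 292099 in LPS kidneys and 293947 to 312488 in mock kidneys. Of 9 measured hepatocyte markers of 14, several of which the kidney also expresses, 8 rose with LPS, and their sums were 135652 to 144007 in LPS + genipin kidneys, 134465 to 143563 in LPS kidneys and 89645 to 102578 in mock kidneys, with Apoa1 at the floor in mock. The 6 measured adipocyte markers of 8, a list chosen after the data were seen, summed to 160829 to 175331 in LPS + genipin kidneys, 125648 to 136319 in LPS kidneys and 115291 to 117909.9 in mock kidneys, the order that Nr1h4 and Cyp27a1 also had. Of these 6, 4 rose with LPS and 4 rose with LPS + genipin against LPS. The 8 measured endothelial markers of 10, of which 5 fell and 2 rose with LPS, summed to 30106 to 31282 in LPS + genipin kidneys, 21881 to 22311 in LPS kidneys and 38763 to 39919 in mock kidneys, with Clec4g at the floor in LPS + genipin. The counts of these marker lists are to be read against all kidney genes, of which 64.3% passed between LPS and mock and 54.7% between LPS + genipin and LPS. The part of these markers in the kidney results was not tested.

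In heart, Nr0b2 moved with LPS as in liver but in the opposite direction with genipin. It gave 1086, 1124 and 1226 in LPS + genipin hearts, 539, 529 and 469 in LPS hearts, and 883, 911 and 943 in mock hearts. The groups did not overlap, with LPS lowest and LPS + genipin highest; 54.1% of heart genes had no overlap between LPS and mock, 52.5% between LPS + genipin and LPS, and 41.4% between LPS + genipin and mock. Nr0b2 fell with LPS (-0.83 ± 0.07, adjusted p = 5.08e-05, 47.1% of 9669 genes passing) and was 2.24-fold higher with LPS + genipin than with LPS (1.16 ± 0.07, adjusted p = 1.29e-05, 41.9% of genes passing). The liver minus heart difference was -1.01 ± 0.13 for LPS against mock (adjusted p = 8.82e-06, 44.7% of 7688 genes passing) and -2.27 ± 0.13 for LPS + genipin against LPS (adjusted p = 1.62e-09, 44.2% passing). Against mock, LPS + genipin hearts were higher by 0.33 ± 0.07 (adjusted p = 0.0184, 19.6% of genes passing), a call lost without LPS + genipin replicate 2 or 3 or mock replicate 1 or 2 (adjusted p 0.0523 to 0.0568). Cyp7a1 gave 369, 282 and 289 in LPS + genipin hearts, 497, 374 and 598 in LPS hearts, and 443, 445 and 289 in mock hearts. The LPS + genipin arrays lay below the LPS arrays and both other pairs of groups overlapped. Its differences did not pass (LPS minus mock 0.32 ± 0.22, adjusted p = 0.270; LPS + genipin minus LPS -0.63 ± 0.22, adjusted p = 0.0533), though the last passed without LPS replicate 2 (-0.81, adjusted p = 0.0269).

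The LPS hearts stood apart from the other hearts in transcripts of other regions and cells, and the heart results above were read from the same arrays. The 6 cardiomyocyte markers, all measured, did not pass in either comparison, with sums of 388823 to 391568 in LPS + genipin hearts, 386516 to 392898 in LPS hearts and 390479 to 392903 in mock hearts. These sums lie close to 6 times the highest intensity in the table, 65491.92, which limits what their test can show. The 2 measured atrial markers of 5, Myl7 and Myl4, summed to 3238 to 3322 in LPS + genipin hearts, 126373 to 130967 in LPS hearts and 3983 to 4358 in mock hearts. The 5 measured adipocyte markers of 8 summed to 85097 to 92674, 189131 to 206384 and 80091 to 85578 in the same order, and Adipoq gave 657 to 666 in LPS + genipin hearts, 20146 to 20849 in LPS hearts and 536 to 742 in mock hearts. Both lists were chosen after these values were seen. The 6 measured hepatocyte markers of 14 summed to 5203 to 6317 in LPS + genipin hearts, 36825 to 51502 in LPS hearts and 4085 to 4677 in mock hearts, through Pck1 and Cyp2e1, which fat also expresses. Of these 6, 2 rose with LPS (Pck1 and Cyp2e1), 2 fell (Alb and Apoa1) and 2 did not pass, where 47.1% of heart genes passed. With LPS + genipin against LPS, 2 rose (Alb and Apoa1), 2 fell and 2 did not pass, where 41.9% passed. Alb and Apoa1, singled out after their values were seen, thus moved as Nr0b2 did, while Pck1 and Cyp2e1 moved the other way. Apoa1 had log2 differences of -1.07 between LPS and mock and 1.44 between LPS + genipin and LPS, and Alb, at the floor on every LPS heart array, was at least 1.53-fold lower with LPS than with mock and at least 2.96-fold higher with LPS + genipin than with LPS. Their part in the Nr0b2 and Cyp7a1 results was not tested.

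**Figure D4:**
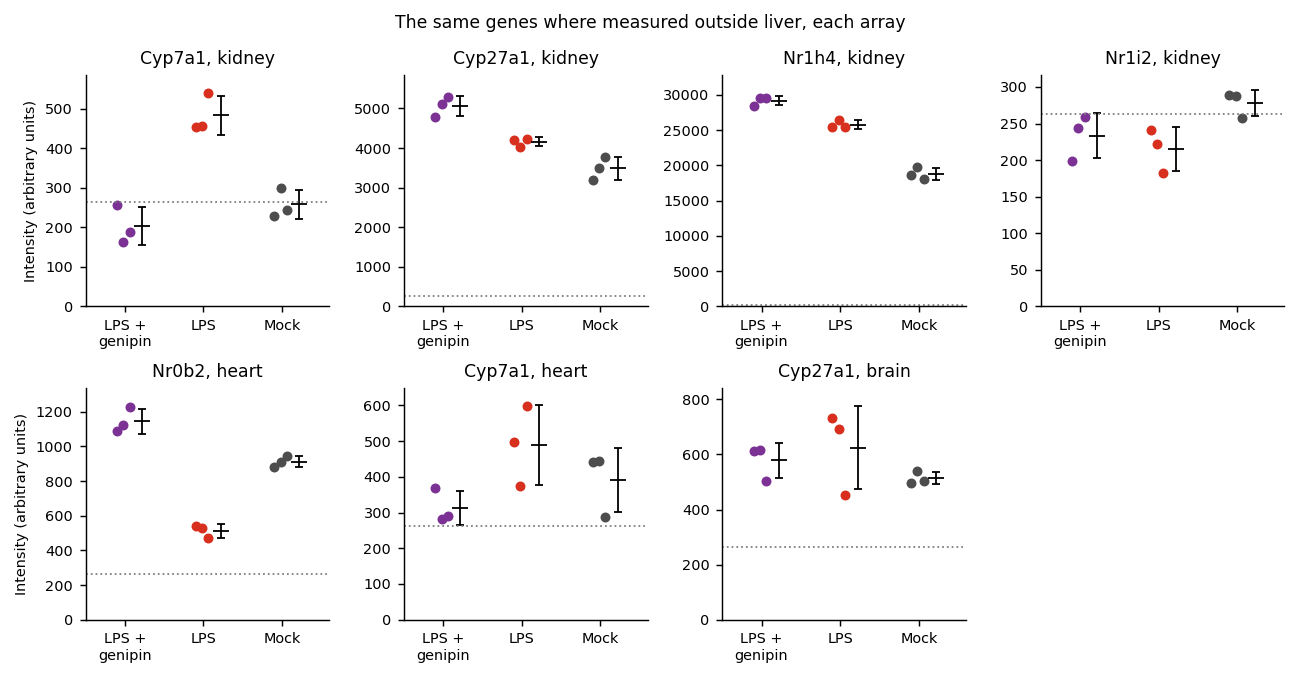
Intensity on each array (points, arbitrary units on a linear axis from 0), with the mean and SD of the 3 arrays, for the genes measured in kidney, heart and brain in LPS + genipin, LPS and mock; the dotted line is the floor of 262.713. Nr1h4 in kidney lies in 3 separate groups, Nr0b2 in heart is lowest with LPS at 469 to 539, and Nr1i2 in kidney lies around the floor.

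In brain, Cyp27a1 was the only gene of the 10 that was measured, and it gave 614, 617 and 503 in LPS + genipin brains, 732, 691 and 452 in LPS brains, and 498, 539 and 504 in mock brains. The groups overlapped in each pair, and LPS replicate 3 was the lowest array of all. The log2 difference was 0.25 ± 0.18 between LPS and mock (adjusted p = 0.303, 33.8% of 10224 genes passing), -0.09 ± 0.18 between LPS + genipin and LPS (adjusted p = 0.750, 30.2% passing) and 0.17 ± 0.18 between LPS + genipin and mock (adjusted p = 0.596, 14.4% passing). Without LPS replicate 3, the difference between LPS and mock was 0.47 ± 0.10 (adjusted p = 0.0134). The LPS brains stood apart in Ttr, a transcript of the choroid plexus and of hepatocytes that was singled out after its values were seen. Its log2 difference was -4.46 between LPS and mock (adjusted p = 1.38e-07) and 4.47 between LPS + genipin and LPS (adjusted p = 1.41e-06). The 5 measured hepatocyte markers of 14, Ttr among them, summed to 67778 to 68135 in LPS + genipin brains, 4609 to 5711 in LPS brains and 65887 to 66456 in mock brains, with Hpd at the floor in LPS + genipin and mock and Alb in mock. Of these 5, Ttr fell with LPS while Alb, Apoa1 and Ahsg rose and 1 did not pass. With LPS + genipin against LPS, 2 of the 5 rose, Ttr and Alb. The LPS + genipin and mock sums lie close to the highest intensity in the table, 65491.92, which may limit the Ttr differences. The 4 measured neuron markers of 6 summed to 177092 to 193026, 191675 to 198915 and 177197 to 192805 in the same order of groups. Their part in the Cyp27a1 values was not tested. The liver minus brain difference was -0.03 ± 0.20 for LPS against mock (adjusted p = 0.914, 56.3% of 7540 genes passing) and 0.06 ± 0.20 for LPS + genipin against LPS (adjusted p = 0.822, 45.5% passing).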

How the data were processed

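The data were a table of 36 Cy5 single-colour arrays with 18183 probes, in 12 groups of 3 taken from the sample titles. Its values are linear intensities, from 9.463 to 65491.92, deposited by the authors after their own normalization, in which the arrays of a tissue share nearly the same distribution; limma is named in the submitters' processing notes, without a role, and neither notes nor labels used here state a background correction. Levels were therefore not compared between tissues or between probes. Replicate arrays of a group correlated at 0.985 to 0.998, and the number of arrays limits the precision. Intensities under the 5th percentile (262.713) were set to that floor and log2 was taken. Probe symbols came from the platform annotation. For 2318 probes an outdated symbol was replaced by the 1 current RefSeq symbol that lists it as a synonym, and 3366 probes had no symbol. Where a gene had several probes (2079 genes), the one with the highest mean was used. limma 3.58.1 in R 4.3.3 was fitted to the 9 arrays of each tissue, with p-values adjusted by the Benjamini-Hochberg method over all genes measured there; differences between tissues were interaction terms in a fit of both tissues and are given for genes above the floor on at least 3 of 6 arrays and on at least 1 array of each group. Fold changes are on the log2 scale after the floor. The fits were tested on simulated data. Figures were drawn with matplotlib 3.10.9. Alternatives were no floor, a floor at the 10th percentile, a filter on dim genes, other probe rules, centring or quantile normalization, a 2-group fit, limma-trend, a replicate block and leaving out each array. Replicate numbers are those of the sample titles, and in the brain comparison of LPS + genipin with LPS the deviations of all 3 same-numbered pairs correlated at 0.142 to 0.192. All 10 genes are described, and of each further list the 4 genes with the largest LPS difference that passed. The genes and lists were chosen with earlier results of these data known, and the adipocyte and atrial lists after the data were seen.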

Additional observations from a re-analysis of the deposited data

Results flagged for a closer look

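The response of a gene was tested for a difference between liver and another tissue, and 7 of 11 differences passed; values are liver minus the other tissue, on the log2 scale. Of all genes tested, 51.0% passed for LPS against mock and 38.4% for LPS + genipin against LPS between liver and kidney, 44.7% and 44.2% between liver and heart, and 56.3% and 45.5% between liver and brain. For LPS against mock, Cyp7a1 differed from kidney by -4.96 ± 0.14 (adjusted p = 3.24e-13) and from heart by -4.47 ± 0.26 (adjusted p = 1.25e-09), its differences being -4.14 in liver, 0.81 in kidney, where 2 of 3 mock arrays were at the floor, and 0.32 in heart. For LPS + genipin against LPS, Cyp7a1 differed from heart by 1.71 ± 0.26 (adjusted p = 7.83e-05), its differences being 1.08 in liver and -0.63 in heart. Nr1h4 differed from kidney by -0.60 ± 0.08 for LPS against mock (adjusted p = 8.38e-06). Nr0b2 differed from heart by -1.01 ± 0.13 for LPS against mock (adjusted p = 8.82e-06) and by -2.27 ± 0.13 for LPS + genipin against LPS (adjusted p = 1.62e-09), in which its differences were -1.11 in liver and 1.16 in heart. Cyp27a1 differed from kidney by -0.31 ± 0.11 for LPS + genipin against LPS (adjusted p = 0.0441), and this call was lost on leaving out any 1 of 11 arrays (adjusted p 0.0528 to 0.109). Each group held 3 arrays, too few to look for single arrays that stand apart.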

How the results depend on the processing

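In liver the number of the 10 genes passing was 8 to 10 for LPS against mock (9 as reported), 7 for LPS + genipin against LPS (7) and 6 or 7 for LPS + genipin against mock (7) over the settings that kept all arrays, and 8 or 9, 7 or 8, and 5 or 6 with 1 array left out. Nr1h4 against mock was lost with no floor (adjusted p = 0.0663), with the filter on dim genes (0.0532) and with the replicate block (0.0821), Nr5a2 with LPS + genipin against mock under limma-trend (0.0707), and Slc10a1 in that comparison with the replicate block (0.0557); Cyp27a1 with LPS passed with the filter (0.0475), the mean of probes (0.0499) and limma-trend (0.0357). In heart, LPS + genipin against LPS counted 2 genes with no floor and with limma-trend (1 as reported) and 1 to 2 with an array left out, and LPS + genipin against mock counted 0 with the replicate block (1 as reported; Nr0b2 adjusted p = 0.0598) and 0 to 1 with an array left out. In brain, LPS against mock counted 0 to 1 with an array left out (0 as reported). Kidney Nr1i2 with LPS passed with no floor (-0.38, adjusted p = 0.0241), its values lying at the floor. Same-numbered arrays deviated together (correlation over 0.1) in 1 of 9 pairs in each of liver, kidney and heart, so the numbers were not taken to pair those arrays. Differently numbered pairs did so in 4 of 18 in liver, 3 of 18 in kidney and 7 of 18 in heart. LPS + genipin replicate 1 with LPS replicate 3 reached 0.588 in liver and 0.595 in heart. LPS + genipin replicate 3 with LPS replicate 1 reached 0.454 and 0.566. Same-numbered pairs there went down to -0.522 and -0.524. No fit modelled the differently numbered pairs, and their part in the calls was not tested. In brain, same-numbered arrays deviated together in 5 of 9 pairs, among them all 3 pairs of LPS + genipin with LPS (0.142 to 0.192), against 3 of 18 differently numbered pairs. With the replicate block, Cyp27a1 there kept its call between LPS + genipin and LPS (-0.09 ± 0.13, adjusted p = 0.649).

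Differences that changed sign were near 0 and did not pass under either setting, all with an array left out: Abcb11 with LPS + genipin against mock in liver (-0.0358 to 0.0341; 0.00490, 0.00240 and 0.0341 where turned), Cyp27a1 with LPS + genipin against LPS in liver (-0.0658 to 0.0303) and in brain (-0.305 to 0.0428; 0.0102, 0.0428 and 6.64e-04 where turned), and Cyp27a1 liver minus kidney with LPS (-0.115 to 0.0401; 0.0401 and 0.0304 where turned), liver minus brain with LPS (-0.247 to 0.101; 0.0433, 0.101 and 0.0586) and liver minus brain with LPS + genipin (-0.0684 to 0.280; -0.0358, -0.0684 and -0.0263). Over all genes of the brain, 1474 passed for LPS + genipin against mock, 2254 in a fit of those groups alone, 934 with the dim filter and 852 with mock replicate 1 left out; 3085 passed for LPS + genipin against LPS and 1907 in the 2-group fit; 3460 passed for LPS against mock and 2261 without mock replicate 3. In heart, 1895 passed for LPS + genipin against mock and 1204 without LPS + genipin replicate 2. A fit of all 36 arrays was not run for these genes, as none was measured in all 4 tissues. Apart from a construction named here, the cause was not tested. Genes near the floor, such as Cyp7a1 and Nr1i2 in kidney and Cyp7a1 in heart, are limited by signal.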

Other observations

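A pair of genes in the lists, singled out after their values were seen, were above the floor in liver with LPS + genipin and in no other liver group. Slc10a2 encodes ASBT, the sodium-dependent bile acid transporter best known from ileum and bile duct epithelium. It gave 879.5, 898 and 859 in LPS + genipin livers, 189, 171 and 177 in LPS livers and 189.7, 177 and 167 in mock livers, the last 6 all at the floor of 262.713. With LPS + genipin it was at least 3.34-fold higher than with LPS (limma adjusted p = 7.70e-08). The 3 measured cholangiocyte markers of 7 (Krt7, Sox9, Spp1) summed to 3471 to 3946 in LPS + genipin livers, 4711 to 5485 in LPS livers and 4998 to 5802 in mock livers, and 1 fell with LPS + genipin against LPS while 2 did not pass. Nrip1, a corepressor of nuclear receptors, gave 505, 532 and 566 in LPS + genipin livers, 222, 259 and 224 in LPS livers and 205, 145 and 195 in mock livers, again with the last 6 at the floor. Its adjusted p for LPS + genipin against LPS was 2.57e-06. For both genes the 6 arrays set to the floor have no spread, and the genes were picked by these same values. Neither adjusted p can therefore be read as support.

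Cebpa, a hepatocyte transcription factor also singled out after its values were seen, gave 10572, 10181 and 10870.3 in LPS + genipin livers, 5674, 5031 and 5149.6 in LPS livers and 9394, 9657 and 10181 in mock livers. Its LPS arrays stood below all others, with log2 differences of -0.88 ± 0.06 between LPS and mock and 1.00 ± 0.06 between LPS + genipin and LPS. The efflux pump Abcc2 and the epoxide hydrolase Ephx1, singled out in the same way, passed above both other groups with LPS + genipin. Their log2 differences were 0.78 and 0.81 against LPS and 0.54 and 0.48 against mock. Of all liver genes, 29.3% passed higher with LPS + genipin against LPS and 28.2% against mock.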
